A study of Mus musculus with 88 samples.

Results

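Soleus and extensor digitorum longus (EDL) of the same wild-type (WT) mice were compared across all genes. The members were the 5 WT libraries titled as soleus and the 5 titled as EDL, paired by the animal number that ends each title, and they made up 10 of the 88 libraries of the series and all 24453 genes of its count table, of which 12874 had enough reads to be tested. The series sequenced polyadenylated RNA from several tissues of male mice with a knockout (KO) of Cdh15 and of WT males, all on a pure C57BL/6NTac background, 65 to 85 days of age and fasted for 18 h. The product of Cdh15, M-cadherin, joins myoblasts and satellite cells to their neighbours. The same pair of muscles in 5 KO mice, which share no animal with the WT pair, served as a repeat. Per the labels each library came from 1 mouse. Every comparison is of whole muscle, so that fewer cells of a type and less RNA per cell cannot be told apart.

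Soleus is a calf muscle that works for hours in standing and walking, and EDL is a shin muscle that lifts the toes in short bursts. Fibres of mammalian limb muscle are sorted by the myosin heavy chain they hold: type 1 fibres carry Myh7 and contract slowly, whereas types 2A, 2X and 2B carry Myh2, Myh1 and Myh4 and contract with increasing speed. Slow fibres also use their own troponins, myosin light chains, tropomyosin and calcium pump, burn fatty acids in many mitochondria and are well supplied with capillaries, while fast fibres hold much glycogen and glycolytic enzyme. In adult mice soleus is known for type 1 and 2A fibres with little Myh4, and EDL for type 2B and 2X fibres.

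The 20 libraries held 15122476 to 25144411 counts each. Levels are counts per 1000000 of the library total (CPM) unless a sentence says RPKM (reads per kilobase of exon and per 1000000 counts), and WT values are listed in the order of mice 3793543, 3793553, 3805657, 3805673 and 3817948 in both muscles. Cdh15 averaged 2.63 ± 0.849 CPM in KO soleus, 2.93 ± 0.359 CPM in KO EDL, 17.2 ± 3.20 CPM in WT soleus and 19.1 ± 2.597 CPM in WT EDL (SD, n = 5 each), so every KO library lay below every WT library. The gene did not pass the test between the muscles of WT mice (log2 -0.21, SE 0.12, adjusted p = 0.28). The leading principal component, with 41.8% of the variance, separated soleus from EDL in all 20 libraries, and the soleus of KO mouse 3805666 lay farthest out on it. On the next component, with 10.4%, the EDL of WT mouse 3817948 stood apart from the other 4 WT EDL libraries. Mitochondrially encoded genes took 19.7% to 22.8% of counts in WT soleus, and 23.8% in that EDL library, where the other 4 had at most 18.3%.

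The labels were checked with the adult myosin heavy chains, whose levels can be compared with each other per length. Myh7, the slow chain, made up 8.01, 2.68, 4.86, 2.78 and 3.55% of the summed RPKM of the 4 adult chains in WT soleus and at most 0.0900% in WT EDL. Myh4, the fastest chain, had a share in KO soleus of 53.9% to 65.1% in 4 mice and 0.322% in mouse 3805666, where Myh7 made up 32.99%. Myh4 was the leading chain in every WT soleus library, at 55.0, 88.2, 76.4, 85.2 and 75.2% of that sum, against 82.4% to 93.9% in WT EDL. The libraries labelled soleus thus held the slow chain that EDL almost lacked, while the lead of Myh4 in 9 of the 10 goes against what adult mouse soleus is known for. The WT gastrocnemius, the large fast muscle that lies over soleus, had Myh4 at 97.5% of the sum. The amount of Myh4 differed between the soleus libraries, and its part in the results was not tested. The labels do not say whether neighbouring fast muscle was taken along with soleus, and this was not tested either. The fold changes are those of the libraries as labelled, so that fast-fibre RNA from such a source, if present, would be counted as soleus.

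Within single genes, Myh7 (chr14:54970688-54994549 in mm10) had 4106, 1858, 3214, 2131 and 2477 CPM in soleus, against 35.4, 5.66, 12.6, 36.8 and 74.2 CPM in EDL. Every soleus library was above every EDL library, by log2 6.74, SE 0.72, adjusted p = 0.00537 (edgeR quasi-likelihood test with mouse as a block, Benjamini-Hochberg adjustment over all tested genes). Myh2, the type 2A chain, had 7870.1, 2871, 4415, 3343 and 4611 CPM in soleus, against 973, 954, 503, 1388 and 2097 CPM in EDL, and rose as well (log2 1.97, SE 0.41, adjusted p = 0.0293), although its call was lost in 3 of 5 fits with 1 mouse left out (adjusted p = 0.0895, 0.0507 and 0.0512 without mice 3793543, 3793553 and 3805673 in turn). Myh4 had 28331, 61272, 50719, 65547 and 52572 CPM in soleus, against 67669, 82256, 70762, 69909.7 and 67385 CPM in EDL. All soleus values lay below all EDL values, yet the difference missed the threshold (log2 -0.57, SE 0.18, adjusted p = 0.0605) and passed it without mouse 3805673 (adjusted p = 0.0471), with no filter on low counts (adjusted p = 0.0456) and in the Wald test of DESeq2 (adjusted p = 0.000364). Myh1, the type 2X chain, had 10961, 3354, 7817, 5739 and 10042 CPM in soleus, against 6842, 6787, 4009, 8202 and 12059 CPM in EDL, ranges that overlapped (log2 -0.08, SE 0.32, adjusted p = 0.888), and its sign turned without mouse 3793553, 3805673 or 3817948 (log2 0.19, 0.01 and 0.01). Since the exons of these chains are close copies of each other, reads of the 3 fast chains may in part have been shared between them when they were counted.

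**Figure D1:**
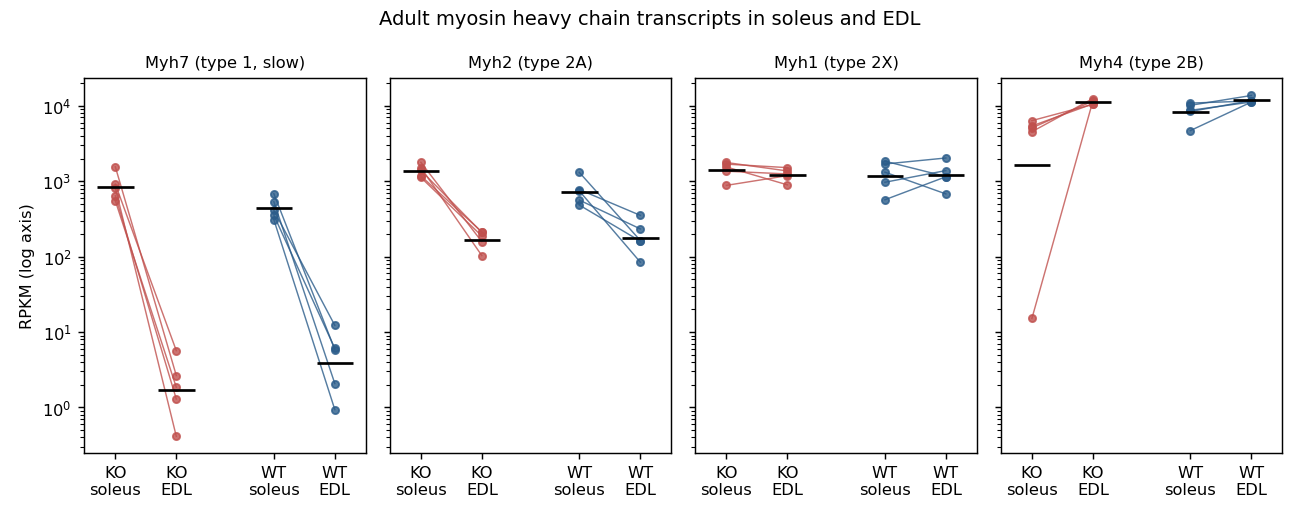
RPKM of the 4 adult myosin heavy chain genes on a log axis, with KO soleus, KO EDL, WT soleus and WT EDL from left to right, 1 point per library, lines joining the muscles of a mouse and bars at the geometric means of 5 libraries. Myh7 separates the muscles in both genotypes, Myh1 overlaps, and the single low Myh4 point is the soleus of KO mouse 3805666.

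Across all genes, 1336 of 12874 tested genes (10.4%) were higher in WT soleus and 787 (6.11%) were lower at an adjusted p under 0.05. Of these, 309 (2.40% of tested genes) were at least 2-fold higher and 50 (0.388%) at least 2-fold lower, so the large differences were mainly genes with more RNA in soleus. The counts depended on the animals. Without mouse 3805657, 829 genes were higher and 342 lower, and 31 were at least 2-fold lower. Genes that were lower numbered 446 without mouse 3793553 and 487 without mouse 3805673. All 5 soleus libraries were above all 5 EDL libraries in 1107 tested genes and below them in 243, and this held for 259 of the 309 genes at least 2-fold higher and for 27 of the 50 at least 2-fold lower. The median log2 fold change over all tested genes was -0.01.

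The largest increases were the thin and thick filament proteins of slow fibres and their calcium pump. Tnni1, the slow inhibitory troponin, had 346, 243, 262, 204 and 244 CPM in soleus, against 3.02, 1.11, 1.46, 4.41 and 7.46 CPM in EDL (log2 6.28, SE 0.54, adjusted p = 0.00291). Tnnc1, the slow and cardiac calcium-binding troponin, had 512, 399.8, 409, 284 and 367 CPM in soleus, against 5.87, 2.34, 2.97, 7.56 and 12.6 CPM in EDL (log2 6.06, SE 0.53, adjusted p = 0.00309). In both genes the lowest soleus library was well above the highest EDL library. Tnnt1, the slow troponin that binds tropomyosin, had 903, 529.7, 697, 494 and 585 CPM in soleus, against 7.87, 6.19, 4.43, 15.8 and 22.7 CPM in EDL (log2 5.93, SE 0.57, adjusted p = 0.00412). Myl3, an essential light chain of slow and ventricular myosin, had 1377, 856, 1002, 699 and 843 CPM in soleus, against 8.89, 4.95, 14.1, 20.1 and 14.5 CPM in EDL (log2 6.28, SE 0.43, adjusted p = 0.000977). All 4 of these genes had their highest soleus value in mouse 3793543 and their lowest in mouse 3805673. Atp2a2, the SERCA2 pump that returns calcium to the sarcoplasmic reticulum of slow and cardiac fibres, had 2275, 793, 1670.0, 1069 and 1107 CPM in soleus, against 40.1, 24.7, 36.9, 44.3 and 49.7 CPM in EDL (log2 5.03, SE 0.25, adjusted p = 5.73e-05). Tpm3, the slow tropomyosin, rose by 4.47 and Myl2, the slow regulatory light chain, by 4.41 on the log2 scale (adjusted p = 0.000208 and 0.00433).

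Among the 10 largest increases were also 2 genes of low level outside the contractile set. Nlrc3, a NOD-like receptor known as a brake on innate immune signalling, had 7.79, 5.83, 4.26, 3.77 and 5.11 CPM in soleus, against 0.377, 0.265, 0.366, 0.398 and 0.293 CPM in EDL, and none of the values overlapped (log2 3.86, SE 0.19, adjusted p = 4.81e-06). A730036I17Rik, an uncharacterised transcript on chromosome 2, had 9.71, 3.94, 6.91, 2.91 and 4.09 CPM in soleus, against 0.323, 0.0885, 0.183, 0.159 and 0.503 CPM in EDL (log2 4.31, SE 0.31, adjusted p = 5.91e-05). At these depths 3 counts correspond to 0.119 to 0.198 CPM, so the EDL values of both genes rest on few reads.

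Promoter sequence is shown here for Myh7, Myl3 and Tnnc1, slow genes that moved together, and for the fast chain Myh4. These genes were picked by hand. Each shown window holds the motif described below, whereas most promoters of the slow list do not. The sequences are RefSeq windows of GRCm38.p6 from 250 bases before to 50 after the first listed start. Capitals mark the MCAT motif CATTCC, searched on both strands and written as GGAATG where it lies on the other strand; MCAT is the site bound by TEAD factors in muscle genes. Myh7 lies on the minus strand at chr14:54994577-54994876, Myl3 on the plus strand at chr9:110763428-110763727, Tnnc1 on the plus strand at chr14:31208062-31208361, and Myh4, the fast chain, on the plus strand at chr11:67237562-67237861.
Myh7: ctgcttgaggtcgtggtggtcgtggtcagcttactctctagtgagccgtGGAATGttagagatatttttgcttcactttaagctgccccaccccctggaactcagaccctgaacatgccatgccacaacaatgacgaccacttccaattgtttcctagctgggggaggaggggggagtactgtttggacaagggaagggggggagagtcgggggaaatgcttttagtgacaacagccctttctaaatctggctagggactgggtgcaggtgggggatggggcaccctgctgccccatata
Myl3: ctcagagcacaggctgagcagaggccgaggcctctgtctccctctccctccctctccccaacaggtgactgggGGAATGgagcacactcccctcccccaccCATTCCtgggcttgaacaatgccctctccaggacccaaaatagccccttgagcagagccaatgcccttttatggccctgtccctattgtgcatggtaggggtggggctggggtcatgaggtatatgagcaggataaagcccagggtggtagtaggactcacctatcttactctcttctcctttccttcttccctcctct
Tnnc1: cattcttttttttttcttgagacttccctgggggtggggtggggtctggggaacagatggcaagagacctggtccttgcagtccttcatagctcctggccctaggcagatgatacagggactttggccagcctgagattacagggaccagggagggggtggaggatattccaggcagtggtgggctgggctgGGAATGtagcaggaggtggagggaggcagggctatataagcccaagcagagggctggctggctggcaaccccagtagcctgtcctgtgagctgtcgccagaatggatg
Myh4: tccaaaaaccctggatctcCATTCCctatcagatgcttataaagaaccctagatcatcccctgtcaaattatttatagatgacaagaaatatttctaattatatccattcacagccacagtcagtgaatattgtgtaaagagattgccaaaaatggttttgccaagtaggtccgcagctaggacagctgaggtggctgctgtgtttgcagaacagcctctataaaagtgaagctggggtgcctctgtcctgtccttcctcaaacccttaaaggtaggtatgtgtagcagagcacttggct
The motif began 201 bases before the first listed start in Myh7, 177 and 149 before it in Myl3, 58 in Tnnc1 and 231 in Myh4. The Myh7 window lies wholly upstream of the gene coordinates given above, so its distance holds only for the first listed start. It was present in 4 of 14 promoters of the slow contractile list and in 5 of 9 of the fast contractile list with an entry, against 14.6% of all 27025 promoters and 12.1% of the 9721 promoters of tested genes. Of the genes at least 2-fold apart with an entry, 31 of 210 higher in soleus and 13 of 37 lower in soleus held it. The E-box CANNTG, the site of MyoD-type factors, was found in 13 of 14 slow and 7 of 9 fast promoters, against 72.1% of all promoters and 63.3% of those of tested genes. It was in 158 of 210 promoters of genes at least 2-fold higher and in 22 of 37 of those at least 2-fold lower. A match is a description of the letters in this window.

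As a list, 10 of 14 tested slow-fibre contractile genes rose and none fell, with a median log2 fold change of 3.65. Besides the genes above, Myoz2, a calsarcin that ties calcineurin to the Z-disc of slow fibres, averaged 374 ± 117 CPM in soleus and 49.5 ± 19.5 CPM in EDL (log2 2.89, SE 0.31, adjusted p = 0.0039), and Myh7b, a slow-type myosin gene that hosts a microRNA, averaged 15.4 ± 1.46 CPM in soleus and 2.57 ± 1.04 CPM in EDL (log2 2.56, SE 0.17, adjusted p = 5.8e-05). The other 4 members, Myom3, Ankrd2, Csrp3 and Smtnl2, had log2 fold changes of 1.39, 1.301, 0.37 and -0.43 and did not pass. Of 16 fast-fibre contractile genes, 7 fell and only Myh2 rose, with a median of -0.45, a smaller median size than in the slow set. These folds were measured in soleus libraries led by Myh4. Mylk2, the kinase of the fast regulatory light chain, had 649, 911, 773, 993 and 798 CPM in soleus, against 1300.3, 1246, 1362, 1382 and 1018 CPM in EDL, without overlap (log2 -0.67, SE 0.11, adjusted p = 0.00287). Myoz3, the fast-fibre calsarcin, fell by 0.45 (adjusted p = 0.00902), and Tnni2, the fast inhibitory troponin, fell by 0.48 on the log2 scale (adjusted p = 0.0172, and 0.0638 without mouse 3793553). The number of fast genes that fell was 4 without mouse 3793543, 3 without mouse 3793553 and 4 without mouse 3805657. Per mouse, the median over the slow list was highest in mouse 3793543, at 4.33, and lowest in mouse 3817948, at 2.92. Mouse 3793543 also had the lowest Myh4 share in soleus and the lowest fast-list median, at -0.78.

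**Figure D2:**
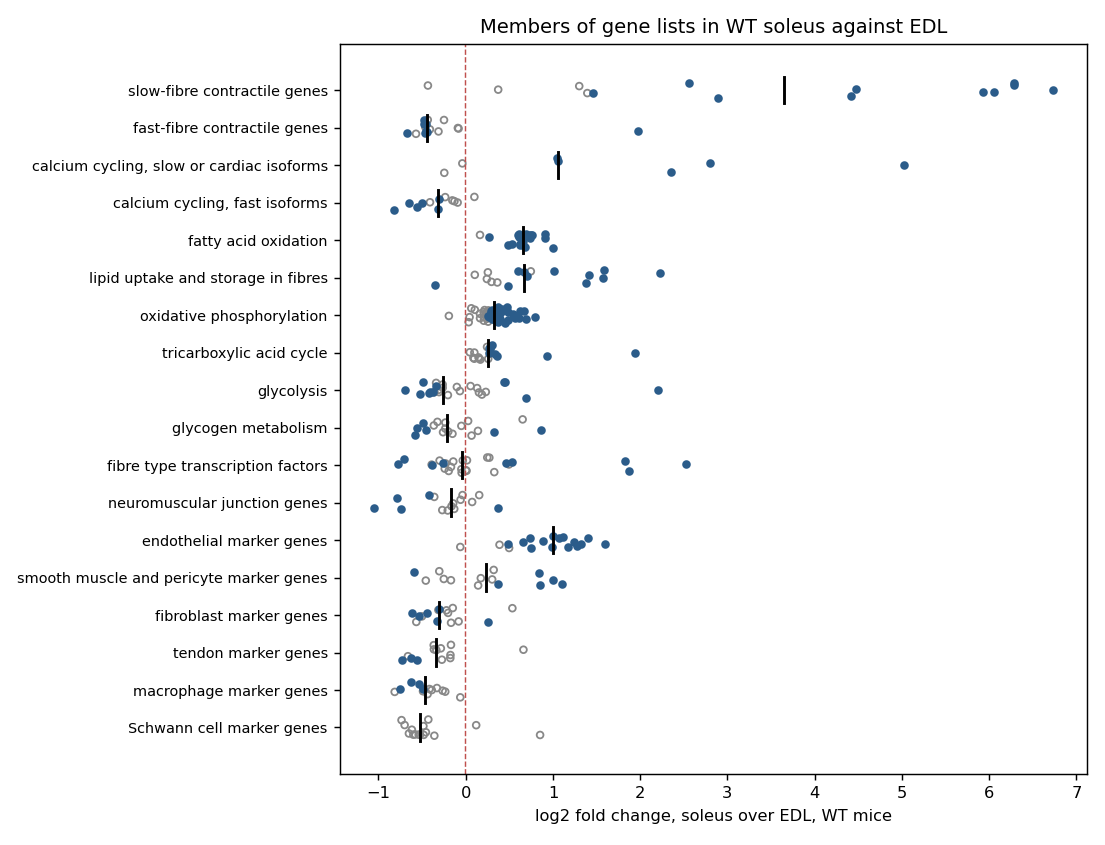
Each point is 1 tested member of a gene list, placed by its log2 fold change of soleus over EDL in WT mice, with filled points for members past the adjusted threshold a bar at the list's median and a dashed line at the median of all tested genes. Slow contractile genes reach 6.74, fatty acid oxidation genes lie at positive values and fast contractile genes lie mostly between -0.67 and 0.

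Calcium handling was split in the same way. Of 7 slow or cardiac isoforms 5 rose and none fell, with a median of 1.06. Casq2, the cardiac calsequestrin that stores calcium in the reticulum, had 60.5, 62.9, 56.7, 55.6 and 70.1 CPM in soleus, against 9.59, 7.61, 12.9, 12.4 and 16.8 CPM in EDL (log2 2.35, SE 0.13, adjusted p = 3.47e-05). Sln, sarcolipin, a small brake on the SERCA pump, had 6.61, 3.21, 4.804, 3.50 and 3.26 CPM in soleus, against 0.593, 0.575, 0.686, 0.597 and 0.419 CPM in EDL (log2 2.80, SE 0.19, adjusted p = 3.42e-05). Both were higher in soleus in every mouse and without overlap. Pln, phospholamban, another such brake, rose by 1.06 (adjusted p = 0.0293), but not in fits without mouse 3793543, 3805657 or 3817948 (adjusted p = 0.0909, 0.107 and 0.0672). Of 12 fast isoforms 6 fell and none rose, with a median of -0.31. Pvalb, parvalbumin, the calcium buffer of fast fibres, averaged 3324 ± 748 CPM in soleus and 5576 ± 686 CPM in EDL (log2 -0.82, SE 0.15, adjusted p = 0.00506). Casq1, the fast calsequestrin, fell by 0.65, Jph1, which holds the reticulum to the transverse tubule, by 0.56 and Trdn, triadin, by 0.50 on the log2 scale (adjusted p = 0.00355, 0.00255 and 0.00484). Among 12 genes of calcineurin and NFAT, the pathway that reads the tonic calcium of slow fibres, 1 rose and 2 fell. These are 8.33% and 16.7%, against 10.4% and 6.11% of all tested genes. Rcan2, a calcineurin inhibitor, rose by 1.04 (adjusted p = 0.00488), and the catalytic subunit Ppp3ca fell by 0.38 (adjusted p = 0.00979). Rcan2 is also 1 of the 5 genes that rose in the slow or cardiac list above, so its rise is counted in both lists.

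Among 26 transcription factors of fibre type, 5 rose and 4 fell (19.2% and 15.4%, against 10.4% and 6.11% of all tested genes). In fits without mouse 3793553 or mouse 3805673, 3 rose, and without the mouse block 3 rose and 1 fell. Esrrb and Esrrg, estrogen-related receptors that drive slow and oxidative genes, averaged 16.6 ± 7.42 CPM in soleus and 2.65 ± 0.786 CPM in EDL for Esrrb (log2 2.52, SE 0.25, adjusted p = 0.000944) and 60.8 ± 18.9 CPM in soleus and 16.0 ± 5.06 CPM in EDL for Esrrg (log2 1.87, SE 0.26, adjusted p = 0.00826). Prox1, a homeobox factor known to keep mouse fibres slow, had 7.07, 3.89, 5.73, 4.36 and 4.19 CPM in soleus, against 1.19, 1.46, 1.42, 1.43 and 1.17 CPM in EDL (log2 1.83, SE 0.18, adjusted p = 0.000244). Tbx15, a T-box factor of glycolytic fibres, had 185, 159, 185, 184 and 212 CPM in soleus, against 308, 352, 298, 328 and 246 CPM in EDL (log2 -0.77, SE 0.12, adjusted p = 0.00223). Neither Prox1 nor Tbx15 overlapped between the muscles, and they moved in opposite directions. Eya4, a transcriptional coactivator, fell by 0.71 (adjusted p = 0.00301, and 0.0594 without the mouse block). Of 16 other Z-disc and thick filament genes 3 rose and 1 fell (18.8% and 6.25%). With 1 mouse left out at a time, 1 rose without mouse 3793543, 3793553, 3805657 or 3805673, and 6 rose without mouse 3817948. Pdlim1 rose by 1.91 and Pdlim3, a paralog, fell by 0.76 (adjusted p = 0.00522 and 0.00293). Among 15 myogenic and satellite cell genes, 2 rose and 2 fell (13.3% each, against 10.4% and 6.11% of all tested genes). With 1 mouse left out at a time, 1 fell without mouse 3793543, 3793553, 3805657 or 3817948. The increases were Notch3 (log2 1.10, SE 0.10, adjusted p = 0.000155), a receptor of satellite cells and of vascular smooth muscle, and Heyl (log2 0.76, SE 0.10, adjusted p = 0.00122), a target of Notch signalling. Myf6, the myogenic factor of mature fibres, fell by 0.48 (adjusted p = 0.00506, and 0.0905 without the mouse block). Among 20 limb position factors, Barx2, a homeobox factor, stood out with 7.40, 6.22, 5.64, 4.96 and 6.28 CPM in soleus, against 1.19, 2.17, 1.14, 1.99 and 1.22 CPM in EDL (log2 1.93, SE 0.20, adjusted p = 0.000286).

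Fuel genes differed widely. Of 20 fatty acid oxidation genes 19 rose and none fell, with a median of 0.66, and all 20 were higher in soleus in each of the 5 mice, where the medians ran between 0.447 and 0.953. Acaa2, the last thiolase step of mitochondrial beta-oxidation, had 204, 138, 145, 148 and 162 CPM in soleus, against 82.7, 54.2, 78.4, 87.2 and 82.7 CPM in EDL (log2 1.003, SE 0.08, adjusted p = 0.00011). Hadhb, a subunit of the trifunctional protein, averaged 534 ± 72.6 CPM in soleus and 277 ± 53.1 CPM in EDL (log2 0.91, SE 0.09, adjusted p = 0.000222), and Slc25a20, the carnitine carrier of the inner membrane, averaged 113 ± 21.8 CPM in soleus and 68.8 ± 11.4 CPM in EDL (log2 0.66, SE 0.07, adjusted p = 0.000337). Of 17 lipid uptake and storage genes 10 rose and 1 fell. Dgat2, which completes triglyceride synthesis, had 108, 54.6, 83.6, 69.4 and 77.7 CPM in soleus, against 17.1, 9.996, 16.8, 19.3 and 17.9 CPM in EDL (log2 2.22, SE 0.10, adjusted p = 4.81e-06). Cd36, the fatty acid translocase, averaged 799 ± 145 CPM in soleus and 299 ± 57.8 CPM in EDL (log2 1.38, SE 0.12, adjusted p = 0.000116). Lpl, lipoprotein lipase, rose by 1.58, Fabp3, the muscle fatty acid binding protein, by 1.58 and Plin5, a lipid droplet coat protein, by 1.02 on the log2 scale (adjusted p = 0.00237, 0.000759 and 8.41e-05). In the same libraries adipocyte markers, of which 1 of 11 rose, varied between the mice: their median log2 difference was 1.531, 1.554, 0.821, -1.366 and -1.574, where that of the lipid list was 0.926, 0.983, 0.635, 0.255 and 0.623. Their summed level was 237.7 to 667.0 CPM in soleus, against 145.8 to 342.3 CPM in EDL, no marker was at 0 in all WT libraries, and their part in the lipid result was not tested. The lipid gene that fell was Acsl6, an acyl-CoA synthetase (log2 -0.35, SE 0.08, adjusted p = 0.017), whose call was lost without mouse 3793553 or 3805657 (adjusted p = 0.057 and 0.0587).

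Of 53 oxidative phosphorylation genes 33 rose, and of 18 genes listed for the tricarboxylic acid cycle 8 rose, with smaller medians of 0.33 and 0.26. None fell in either list. Cyc1, cytochrome c1 of complex III, had 234, 181, 205, 191 and 219 CPM in soleus, against 133, 89.1, 149, 133 and 128 CPM in EDL (log2 0.67, SE 0.07, adjusted p = 0.000453). Uqcrfs1, the Rieske protein of the same complex, and Atp5g3, a ring subunit of the ATP synthase, rose by 0.69 and 0.62 on the log2 scale (adjusted p = 0.000882 and 0.000759). Idh2, the NADP-linked isocitrate dehydrogenase, had 541, 308, 417, 336 and 329 CPM in soleus, against 82.5, 84.3, 95.4, 123 and 95.0 CPM in EDL, without overlap (log2 1.94, SE 0.16, adjusted p = 0.000306). Mdh1, cytosolic malate dehydrogenase, rose by 0.93 (adjusted p = 0.000315). Other isocitrate and malate dehydrogenase genes of the list, Idh3a, Idh3b, Idh3g and Mdh2, did not pass (log2 0.15, 0.10, 0.10 and 0.24, adjusted p = 0.217, 0.44, 0.439 and 0.0703). The cycle genes that rose numbered 4, 5, 3 and 4 without mice 3793543, 3793553, 3805657 and 3805673 in turn. The count for oxidative phosphorylation ran between 23 and 35 with 1 mouse left out. Of 15 ketone and amino acid oxidation genes 7 rose and 1 fell: Bdh1, the mitochondrial hydroxybutyrate dehydrogenase, had 200.5, 86.8, 142, 79.2 and 99.5 CPM in soleus, against 16.7, 6.06, 11.1, 12.2 and 25.2 CPM in EDL (log2 3.09, SE 0.35, adjusted p = 0.00586), while the member that fell was Glul, glutamine synthetase, by 0.60 (adjusted p = 0.0039, and 0.104 without the mouse block). There 2 fell without mouse 3793543 or mouse 3817948. Of 26 metabolic regulators 6 rose and 3 fell (23.1% and 11.5%, against 10.4% and 6.11% of all tested genes), with a median of 0.06. Esrrg, counted above with the fibre type factors, is 1 of the 6. Ppara, a nuclear receptor of fatty acid catabolism, averaged 40.1 ± 9.78 CPM in soleus and 13.1 ± 3.25 CPM in EDL (log2 1.57, SE 0.17, adjusted p = 0.00121), and Esrra rose by 0.61 (adjusted p = 0.00124). Nr4a1, Nr4a3 and Ucp3 fell (log2 -0.45, -1.10 and -0.35, adjusted p = 0.005, 0.0224 and 0.0291), and none of them passed without the mouse block. Between 3 and 7 regulators rose with 1 mouse left out.

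Glycolysis and glycogen genes leaned the other way, more weakly. Of 25 glycolysis and lactate genes 4 rose and 7 fell, with a median of -0.26. Among lactate genes the isoforms did not all pass. Ldha, a lactate dehydrogenase subunit, did not (log2 -0.31, adjusted p = 0.12). Ldhb, the heart-type lactate dehydrogenase subunit, had 459, 294, 357, 269.7 and 317 CPM in soleus, against 69.1, 53.3, 56.7, 85.5 and 92.3 CPM in EDL (log2 2.21, SE 0.19, adjusted p = 0.000453). Slc16a1, the carrier known for lactate uptake, rose by 0.70 and Slc16a3, the carrier known for lactate export, fell by 0.70 on the log2 scale (adjusted p = 0.000472 and 0.0161, the second being 0.0544 without mouse 3793553 and 0.0596 without mouse 3805657). The glycolysis genes that fell numbered 2, 0, 0 and 3 without mice 3793543, 3793553, 3805657 and 3817948 in turn. Those that rose numbered 2 in each fit without mouse 3793543, 3793553 or 3805657. Of 18 glycogen genes 2 rose and 4 fell (11.1% and 22.2%), so the share that rose was near that of all tested genes. Ppp1r3a, the muscle subunit that brings phosphatase to glycogen, averaged 525 ± 103 CPM in soleus and 755 ± 88.2 CPM in EDL (log2 -0.59, SE 0.12, adjusted p = 0.00911), and Ppp1r1a, an inhibitor of protein phosphatase 1, rose by 0.87 (adjusted p = 0.00125). The glycogen genes that fell numbered 2 without mouse 3793553 and 1 without mouse 3805657. In each fit without mouse 3793543, 3793553, 3805657 or 3805673, 1 rose, and 3 rose without mouse 3817948. In purine and creatine metabolism, Ampd1, the muscle AMP deaminase, fell by 0.63, whereas Ampd3, its erythrocyte-type paralog, rose by 0.88 and Ckmt2, mitochondrial creatine kinase, by 0.95 on the log2 scale (adjusted p = 0.00503, 0.000453 and 0.000794, that of Ampd3 being 0.13 without the mouse block).

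Genes of capillaries went with soleus. Of 18 endothelial markers 15 rose and none fell, with a median of 0.997, and their summed level was 273.7 to 559.2 CPM in soleus, against 160.9 to 242.4 CPM in EDL. Kdr, the main VEGF receptor, had 50.8, 19.7, 47.4, 27.1 and 33.05 CPM in soleus, against 12.7, 8.45, 13.1, 14.6 and 14.1 CPM in EDL (log2 1.397, SE 0.17, adjusted p = 0.00218). Esam and Robo4, an adhesion molecule and a guidance receptor of endothelium, rose by 1.0003 and 1.12 on the log2 scale (adjusted p = 5.87e-05 and 0.000759). Of 14 smooth muscle and pericyte markers 5 rose, led by Rgs5 (log2 0.85, SE 0.07, adjusted p = 7.66e-05), a regulator of G protein signalling in pericytes. Notch3, counted above with the satellite cell genes, is 1 of the 5. The 1 that fell, Lmod1, a smooth muscle leiomodin, lost its call in 3 of 5 fits with 1 mouse left out (log2 -0.60, SE 0.15, adjusted p = 0.0258; adjusted p = 0.0694, 0.085 and 0.0665 without mice 3793543, 3793553 and 3817948 in turn). Mb, myoglobin, the oxygen store of the fibre, averaged 3055 ± 731 CPM in soleus and 1550.2 ± 469.6 CPM in EDL (log2 0.95, SE 0.17, adjusted p = 0.00667), and Aqp1, a water channel of capillaries, averaged 264 ± 46.5 CPM in soleus and 121 ± 25.5 CPM in EDL (log2 1.09, SE 0.09, adjusted p = 0.000101). Of the other cell types, 5 of 15 fibroblast and 3 of 13 tendon markers fell, led by Fbln1 (log2 -0.54, SE 0.09, adjusted p = 0.00396) and Fmod (log2 -0.73, SE 0.10, adjusted p = 0.00127), and 1 fibroblast marker rose. Fibulin-1 (Fbln1) and fibromodulin (Fmod) are matrix proteins. The fibroblast markers that fell numbered 8 without mouse 3793553, 2 without mouse 3805657 or 3805673 and 3 without mouse 3817948, and 1 tendon marker fell without mouse 3805657. No fibroblast marker rose in the fits that left out mouse 3793543, 3793553, 3805657 or 3805673, 1 at a time, and 2 did without mouse 3817948. None of 15 Schwann cell markers passed, and their sum was 105.7 to 724.6 CPM in soleus, against 308.6 to 428.7 CPM in EDL. No marker of these types was at 0 in all WT libraries, and their part in the fibre results was not tested.

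Macrophage markers varied between animals. In KO mice 1 of 14 rose and none fell, with a median of 0.05. In WT mice 4 of 14 fell, among them Csf1r, the receptor of macrophage growth factor (log2 -0.49, SE 0.13, adjusted p = 0.0306; adjusted p = 0.102, 0.0969 and 0.082 without mice 3805657, 3805673 and 3817948 in turn), with a median of -0.46. The count was 8 without mouse 3793553 and 0 without mouse 3805657, 3805673 or 3817948, and the medians of single mice ran between -0.747 and 0.304.

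Genes lower in soleus were fewer and of smaller fold. Gdap1, a mitochondrial outer membrane protein, had 6.80, 11.0, 6.96, 9.19 and 12.5 CPM in soleus, against 25.5, 28.4, 18.4, 24.9 and 18.9 CPM in EDL (log2 -1.38, SE 0.14, adjusted p = 0.000589). Apod, a lipocalin, had 136, 97.3, 83.1, 66.6 and 114 CPM in soleus, against 218, 215, 246, 166 and 181 CPM in EDL (log2 -1.12, SE 0.11, adjusted p = 0.000302). Neither overlapped between the muscles. Dkk3, a secreted Dickkopf family protein, had 7.60, 4.71, 4.07, 4.63 and 4.67 CPM in soleus, against 12.3, 9.86, 25.2, 13.5 and 10.4 CPM in EDL, with the highest soleus value in mouse 3793543 and the highest EDL value in mouse 3805657 (log2 -1.47, SE 0.24, adjusted p = 0.00706). Cntnap2, a neurexin family protein, fell by 1.65 and Mustn1, a small nuclear protein of muscle and skeleton, by 1.35 on the log2 scale (adjusted p = 0.00538 and 0.00328). Peg3, an imprinted zinc finger gene, had 105, 86.3, 59.3, 53.5 and 59.1 CPM in soleus, against 164, 214, 363, 176 and 116 CPM in EDL (log2 -1.50, SE 0.27, adjusted p = 0.018), and Zim1, its imprinted neighbour on chromosome 7, had 8.98, 5.73, 5.10, 5.16 and 3.94 CPM in soleus, against 11.7, 10.5, 27.7, 9.90 and 6.29 CPM in EDL (log2 -1.13, SE 0.28, adjusted p = 0.0393). Both were lower in soleus in 5 of 5 mice. The call of Peg3 was lost without mouse 3793553 or 3805673 (adjusted p = 0.055 and 0.0551), and that of Zim1 without mouse 3793553, 3805673 or 3817948 (adjusted p = 0.0953, 0.0803 and 0.0941).

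The 2 largest decreases in size did not hold in every fit. Ankrd1, a stretch-induced titin-binding protein, had 23.1, 6.80, 9.07, 6.68 and 5.597 CPM in soleus, against 61.5, 22.6, 45.5, 13.4 and 62.8 CPM in EDL (log2 -2.05, SE 0.42, adjusted p = 0.0355), and lost its call in 3 of 5 fits with 1 mouse left out (adjusted p = 0.0944, 0.0871 and 0.123 without mice 3793543, 3793553 and 3805657 in turn). Mss51, a mitochondrial protein of fast muscle, had 133, 136, 81.0, 150.1 and 270.1 CPM in soleus, against 550.4, 1012, 256, 727 and 344 CPM in EDL (log2 -1.90, SE 0.39, adjusted p = 0.032), and lost it likewise (adjusted p = 0.12, 0.0934 and 0.0926 without mice 3793543, 3805657 and 3805673 in turn). Hs6st2, a heparan sulfate sulfotransferase, averaged 2.83 ± 1.09 CPM in soleus and 8.02 ± 2.70 CPM in EDL (log2 -1.51, SE 0.32, adjusted p = 0.0202; adjusted p = 0.0509, 0.0574 and 0.0623 without mice 3793543, 3805657 and 3805673 in turn). Ankrd1 and Mss51 were lower in soleus in all 5 mice but overlapped between the muscles.

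At the synapse and the membrane, soleus had less RNA for parts of the acetylcholine receptor. Chrne, the adult epsilon subunit, had 7.07, 5.30, 6.18, 8.79 and 9.88 CPM in soleus, against 12.9, 16.5, 14.2, 19.5 and 11.2 CPM in EDL (log2 -1.05, SE 0.17, adjusted p = 0.00506). Chrnb1, the beta subunit, fell by 0.74 and Ache, which splits acetylcholine, by 0.79 on the log2 scale (adjusted p = 0.000158 and 0.000994). In all, 4 of 15 neuromuscular junction genes fell and 1 rose (26.7% and 6.67%, against 6.11% and 10.4% of all tested genes). The 1 that rose was Musk, the agrin receptor kinase (log2 0.37, SE 0.10, adjusted p = 0.0311). It lost its call without mouse 3793553, 3805657, 3805673 or 3817948 (adjusted p = 0.0538, 0.0917, 0.0703 and 0.0692). In WT mouse 3817948, 11 of the 15 were higher in soleus. In KO mice 4 rose and 5 fell, with a median of -0.035. Of 23 excitability and ion pump genes 7 rose and 7 fell (30.4% each), and 4 fell without mouse 3793553 or mouse 3805657. Among those that fell were the sodium-calcium exchangers Slc8a3 and Slc8a1, by 0.87 and 0.71 on the log2 scale (adjusted p = 0.000194 and 0.000216).

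The comparison was then repeated in KO mice. There 2449 of 12948 tested genes (18.9%) were higher in soleus and 1939 (15.0%) were lower, and those lower numbered 1142 without KO mouse 3805676 and 1282 without KO mouse 3817943. Of the 359 genes at least 2-fold apart in WT mice, 357 were tested in KO mice, 352 had the same direction and 324 (90.8%) also passed; none passed in the opposite direction. Without KO mouse 3805666, whose soleus held almost no Myh4, 310 of 357 (86.8%) passed in the same direction. Of all 2123 WT calls, 1743 of 2121 tested passed in the same direction and 1 passed in the opposite one. The 5 genes of opposite sign among the 357 were Nrm, Adnp, Hmga1, Tdg and Map4k1, named after their values were seen, and none of them passed in KO mice.

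**Figure D3:**
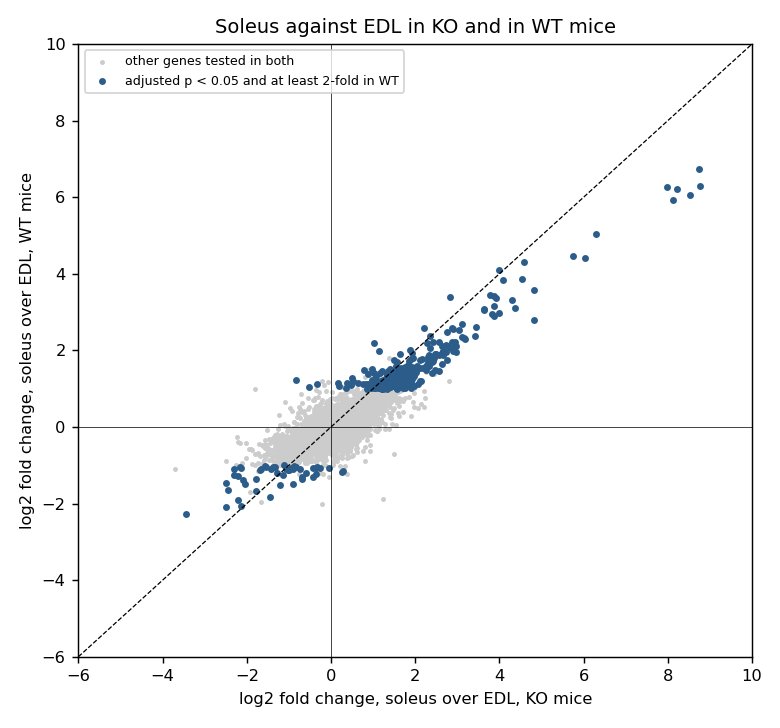
Log2 fold change of soleus over EDL in KO mice (horizontal) and in WT mice (vertical) for every gene tested in both, with the genes at least 2-fold apart in WT mice in blue and a dashed line of equal values. Blue points lie in the quadrants of equal sign for 352 of 357 genes, and 271 have the larger absolute value in KO mice.

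Of the 357 genes, 271 had the larger absolute log2 fold change in KO mice, and 242 did without KO mouse 3805666. Over the 357 genes the median absolute log2 fold change was 1.549 in KO mice and 1.267 in WT mice, and the KO value was 1.466 without KO mouse 3805666. The members were chosen for their size in WT mice, which makes the WT median a description. For the slow contractile list 12 of 14 genes rose in KO mice and 10 of 14 in WT mice, with medians of 4.81 in KO mice and 3.65 in WT mice. Without KO mouse 3805666 that KO median was 4.60, with 12 genes that rose and 1 that fell. Myh7 had 4905, 3305, 9337, 5501 and 3849.5 CPM in KO soleus, against 2.52, 11.2, 16.1, 34.3 and 7.85 CPM in KO EDL (mice 3779417, 3793546, 3805666, 3805676 and 3817943; log2 8.75, SE 0.67, adjusted p = 0.000916). In KO mice 10 of 16 fast contractile genes fell, and 14 did without mouse 3805666, against 7 in WT mice. For fatty acid oxidation 20 of 20 genes rose in KO mice and 19 in WT mice, with medians of 0.91 in KO mice and 0.66 in WT mice. Over all tested genes 18.9% rose and 15.0% fell in KO mice, against 10.4% and 6.11% in WT mice, so counts of calls in any list are to be read against those shares. In oxidative phosphorylation 46 genes rose in KO mice and 33 in WT mice, and in the endothelial list 17 rose in KO mice and 15 in WT mice. Without KO mouse 3805666 those KO counts were 43 and 14.

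The difference between the genotypes itself was tested as an interaction, and 0 of 13314 genes (0.00%) passed with the quasi-likelihood test, while 1413 had an unadjusted p under 0.05. A Wald test in DESeq2 called 13 genes. Among the smallest p-values of the quasi-likelihood test were those of Gata3, a zinc finger factor, Rsph3b, a radial spoke protein, Plac9a and Rbm4, a splicing regulator, whose KO minus WT differences were 3.91, 0.74, -1.29 and 1.54 on the log2 scale (adjusted p = 0.423 each). Atp2a2, the slow calcium pump, was among the 13 of DESeq2, with a log2 fold change of 6.30 in KO mice and 5.03 in WT mice in the quasi-likelihood fits.

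**Figure D4:**
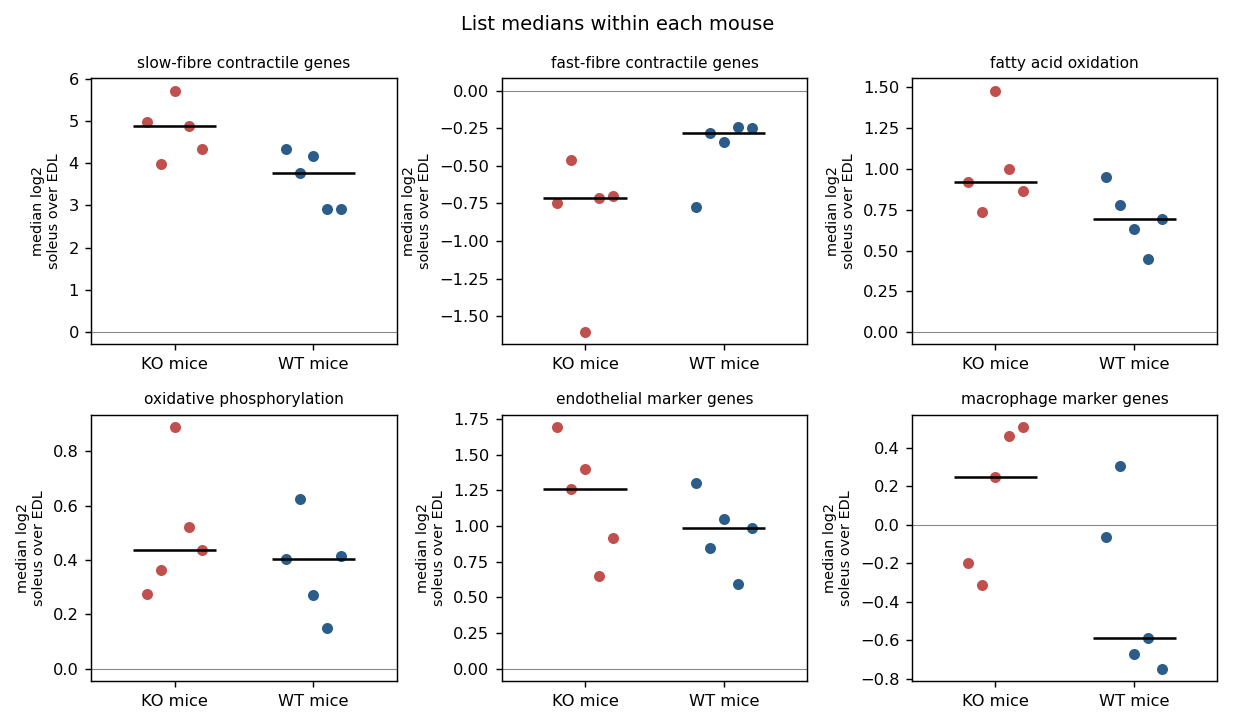
Median log2 fold change of soleus over EDL over the members of a gene list, 1 point per mouse, with KO mice to the left of WT mice and a bar at the median of 5 mice. The slow list lies between 3.98 and 5.72 in KO mice and between 2.92 and 4.33 in WT mice, and the fatty acid oxidation list is above 0 in all 10 mice.

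The 309 and 50 genes were also read in the other hindlimb muscles of WT mice. Of the 309 genes at least 2-fold higher in soleus, soleus had the highest mean level of soleus, gastrocnemius, tibialis and EDL in 296. Of the 50 genes at least 2-fold lower, soleus had the lowest mean in 28 and EDL the highest in 39. Both sets were chosen on these soleus and EDL libraries, which favours extreme values there, so the counts and the medians against EDL are a description. Relative to EDL, the higher genes had a median log2 difference of 0.01 in gastrocnemius and 0.37 in tibialis, and the lower genes had -0.68 in gastrocnemius and -0.57 in tibialis.

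**Figure D5:**
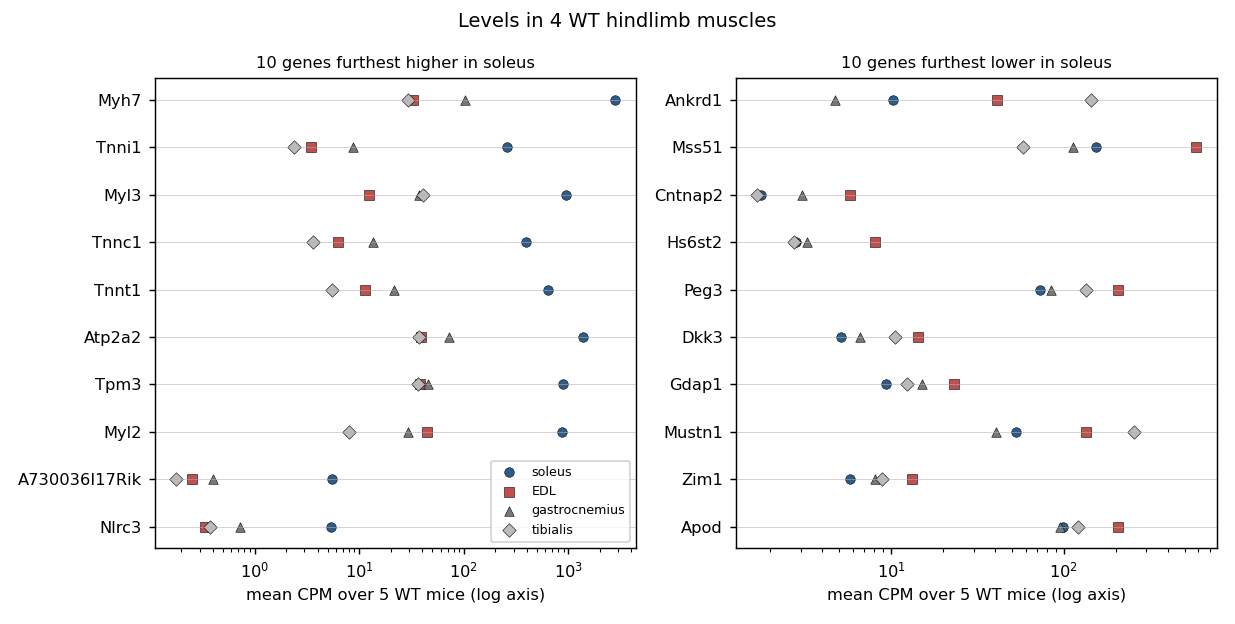
Mean CPM over 5 WT mice on a log axis for the genes with the largest increases and decreases, with 1 row per gene and 1 marker per muscle. Soleus lies to the right of the other 3 muscles for the increased genes, while for Ankrd1 tibialis, at 144 CPM, lies above EDL, at 41.2 CPM.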

How the data were processed

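Whole-muscle polyA RNA was extracted with MagMax and made into libraries with a KAPA stranded mRNA-Seq kit, per the labels' protocols. The authors deposited expected counts per Entrez gene, of which 85.55% of values were whole, and RPKM values, which equal those counts per kilobase of exon and per 1000000 of the library total; coordinates are mm10, per the submitters' processing notes. The aligner, the counter and the use of strand are not given in the sources used here.

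Expected counts were rounded, 22 rows that name no gene (at most 0.0009% of a library) were left out, and genes were filtered with filterByExpr (count minimum 10, total 15). edgeR 4.0.16 (R 4.3.3, limma 3.58.1) fitted a robust quasi-likelihood model with TMM factors and mouse as a block, separately in 10 KO and 10 WT libraries, and over all 20 for the KO minus WT difference. Calls are Benjamini-Hochberg adjusted p under 0.05 over all tested genes; SE is the log2 fold change over the root of F. DESeq2 1.42.0, its size factors, no filter, no block and leaving out each mouse were alternatives. The scripts were tested on simulated data. The muscles of a mouse are paired by animal number. Same-mouse deviations correlated at 0.012 to 0.264 in KO mice and 0.196 to 0.324 in WT mice. For KO mice 3793546, 3805666 and 3817943 and WT mice 3793543 and 3805673, the soleus correlated more with the EDL of another mouse. No 2 replicates agreed within counting noise in 40 pairs.

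Named genes were Cdh15, the 4 adult myosins, the 10 largest changes in each direction (at least 5 CPM in the higher muscle, same direction in 5 mice), up to 6 members of smallest p in each list with members against its direction, and 5 genes of smallest p for the difference. A few genes that this rule names are not reported here. The comparison, members and gene lists were chosen with earlier results of these data known. Each library holds 15122476 to 25144411 counts, and intervals are over mice. Genes with near copies, such as Myh1, Myh2 and Myh4, may share reads.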

Additional observations from a re-analysis of the deposited data

Results flagged for a closer look

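Among 100 groups of 5 libraries, for the leading genes in the soleus and EDL of KO and WT mice, 12 had 1 library far from the other 4, where chance gives about 1 in 20. In the soleus of KO mouse 3805666, Myh4 was at 89.74 CPM, against at least 27370 CPM in the other KO soleus libraries, and A730036I17Rik and Nlrc3 had their highest values, 18.23 and 18.86 CPM. In the EDL of KO mouse 3805676 the slow troponins Tnnc1 and Tnnt1 were highest, at 3.371 and 7.631 CPM. Zim1 was highest in the EDL of KO mouse 3779417, at 23.94 CPM. In the soleus of WT mouse 3793543, Ankrd1 had 23.12 CPM and Dkk3 7.596 CPM, each the highest of 5. In the EDL of WT mouse 3805657, Dkk3 had 25.18 CPM and Zim1 27.65 CPM, again the highest. Tpm3 had 57.65 CPM in the EDL of WT mouse 3817948, against at most 38.5 CPM in the other WT EDL libraries, and Myh4 had 82260 CPM in the EDL of WT mouse 3793553, against at most 70760 CPM in the others.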

How the results depend on the processing

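Without the replicate block, which ignores that both muscles come from 1 mouse, 4366 genes passed in KO mice in place of 4388 and 1506 in WT mice in place of 2123, and 54 of 182 named calls were lost; other lost calls were 15 with a DESeq2 Wald test, 2 with its size factors, 9 with no filter and 26 to 58 with 1 mouse left out. In all, 101 of the 182 were kept under every alternative, and the only sign that turned was that of Myh1 (0.19, 0.01 and 0.01 without mice 3793553, 3805673 and 3817948, with a range of -0.36 to 0.19 over the 5 fits). With 1 mouse left out, calls ran between 3048 and 3759 in KO mice (632 to 861 at least 2-fold apart) and between 1171 and 2070 in WT mice (263 to 417), and WT genes repeated in KO mice between 247 and 370, against 308 to 335 with other tools and filters. For the KO minus WT difference the Wald test called 13 genes, and 0 to 1 passed with 1 mouse left out (1 without WT mouse 3793553 and 1 without KO mouse 3779417). Size factors of DESeq2 moved the split of WT calls to 1293 higher and 866 lower. The cause of these shifts was not tested, although fewer mice leave fewer degrees of freedom. Genes near 3 counts, 0.119 to 0.198 CPM, are not resolved at this depth.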

Other observations

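Gene lists outside fibre type and fuel held a few members that differed between WT soleus and EDL. Their shares are to be read against the 10.4% of all tested genes that rose and the 6.11% that fell. Of 17 secreted muscle factors 5 (29.4%) rose and 2 (11.8%) fell. With each mouse left out in turn, in the order of the report, 4, 3, 3, 5 and 3 rose and 3, 2, 1, 1 and 2 fell. Fndc5, the precursor of irisin, had 138, 60.4, 109, 83.5 and 95.9 CPM in soleus, against 27.8, 16.8, 25.1, 28.3 and 38.9 CPM in EDL (log2 1.78, SE 0.16, adjusted p = 0.000589), and Igfbp5, a binding protein of insulin-like growth factors, averaged 173 ± 39.1 CPM in soleus and 292 ± 66.2 CPM in EDL (log2 -0.80, SE 0.11, adjusted p = 0.00134). Of 17 stretch and load genes 3 rose and 3 fell, 17.6% each (2, 2, 2, 2 and 6 rose and 1, 2, 1, 3 and 3 fell with each mouse left out). Among these are Cryab, which rose, and Myf6, which fell. Both are also counted in lists above. The heat shock genes Hspa1b and Hspa1a, near-identical copies whose reads may be shared, rose by 1.99 and 1.74 on the log2 scale (edgeR adjusted p = 1.77e-05 and 0.00657). Of 11 cadherin and junction genes 2 (18.2%) rose, among them Ctnna3, an alpha catenin (log2 0.81, SE 0.12, adjusted p = 0.00223), and 1 (9.09%) fell. With each mouse left out, 2, 2, 2, 1 and 2 rose and 1, 0, 0, 0 and 0 fell. Of 14 oxygen and vessel growth genes 4 (28.6%) rose and 1 (7.14%) fell, which was Car14, a carbonic anhydrase (log2 -0.34, SE 0.08, adjusted p = 0.0135).

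The shares of position, clock and early response genes that passed were near those of all tested genes, 10.4% higher and 6.11% lower. Of 25 Hox genes 2 (8.0%) rose and 1 (4.0%) fell (0, 1, 0, 1 and 1 rose and 0, 0, 0, 1 and 2 fell with each mouse left out), of 19 circadian clock genes 1 (5.26%) rose and 2 (10.5%) fell (0, 0, 0, 1 and 1 rose and 1, 1, 1, 2 and 2 fell), and of 19 immediate early genes 1 (5.26%) rose and 2 (10.5%) fell (0, 0, 1, 0 and 0 rose and 1, 4, 3, 1 and 3 fell). Of 11 adipocyte markers 5 rose in KO mice, and 3 without KO mouse 3805666, while in WT mice 1 rose (1, 0, 0, 0 and 1 with each mouse left out), and of 3 tested blood cell markers none passed. Of 9 muscle spindle markers 2 (22.2%) rose and 1 (11.1%) fell. The increases were Myh7b and Casq2, which are also members of the slow contractile and slow calcium lists above, so they are not separate evidence on spindles. The decrease was Piezo2, a stretch-gated channel of sensory endings (log2 -0.64, SE 0.13, adjusted p = 0.00925, and adjusted p = 0.0603 without the mouse block).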
